A study of Caenorhabditis elegans with 25 samples.

Results

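The lysosomal lipase genes lipl-1 to lipl-5 of C. elegans were taken by name from a table of raw read counts, in which they are 5 of 42532 genes, and all 5 passed the filter on low counts that left 14634 genes for testing. Lysosomal acid lipases split neutral lipids, such as the triglycerides of lipid droplets, inside lysosomes, where autophagy of droplets delivers them. In the worm these enzymes are best known from the intestine, the main fat store, and from fasting: the transcription factor HLH-30 activates lipl genes when food is short, and MXL-3 represses lipl-1, lipl-2 and lipl-3 in fed animals. LIPL-4 is known for a lipid signal that the fatty acid binding protein LBP-8 carries from the lysosome to nuclear receptors.

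Poly(A) RNA of whole worms on day 1 of adulthood was sequenced in 25 libraries, 5 for each of 5 genotypes, from samples of 500 to 600 animals. The flp-17oe egl-6(lof) strain carried the extrachromosomal array ssrEx1193, with flp-17p::flp-17::GFP and a myo-3p:mCherry marker, together with the allele n4537 of egl-6, the gene of a G protein-coupled receptor for FLP-17 peptides. The flp-17oe strain carried the array alone, egl-6(lof) carried n4537 alone, flp-17(lof) carried the allele n4894 of flp-17, a neuropeptide gene of the BAG sensory neurons, and N2 was the wild type. All strains except N2 had been outcrossed 6 times into N2, and all were fed E. coli OP50-1. The array drives flp-17 from its own promoter and mCherry from the promoter of a muscle myosin gene, and it is not passed on to every animal. Animals with the array were therefore picked out by their fluorescence 24 hours before collection, and animals of the remaining strains were only washed and replated. Array and sorting cannot be told apart, nor can flp-17 and the rest of the array, since every array strain carried flp-17. Replicate 1 of each genotype formed batch 1 of the labels and replicates 2 to 5 formed batch 2. The labels do not say that replicates came from separate cultures, so the p-values measure the spread between these samples.

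Total counts per library ran from 25164923 to 99717657, and flp-17(lof) replicate 1 stood apart with the lowest total and 9.50% of its counts from ribosomal RNA genes. Levels are counts per 1000000 (CPM) over library sizes scaled by TMM factors. The flp-17 level averaged 232 ± 29.4 CPM in flp-17oe egl-6(lof), 188 ± 27 in flp-17oe, 4.64 ± 0.233 in egl-6(lof), 0.310 ± 0.0607 in flp-17(lof) and 4.62 ± 0.459 in N2 (SD, n = 5 each), and egl-6 averaged 2.89 ± 0.380 CPM in flp-17oe egl-6(lof), 6.33 ± 0.838 in flp-17oe, 2.81 ± 0.496 in egl-6(lof), 6.07 ± 0.284 in flp-17(lof) and 6.03 ± 0.629 in N2. Both genes differed in the direction of the labels.

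All 5 lipase genes lie on chromosome V of genome build ce11, coordinates being those of the Ensembl 115 annotation of the same assembly. The plus-strand gene lipl-1 (WBGene00010062) runs from 12919986 to 12921692 with 5 exons, and lipl-2 (WBGene00009773), on the same strand, from 9791567 to 9793241 with 5 exons. The minus-strand gene lipl-3 (WBGene00020016) runs from 521595 to 524218 with 7 exons. The plus-strand genes lipl-4 (WBGene00019376) and lipl-5 (WBGene00022642) run from 6550171 to 6552186 and from 385746 to 387740. The annotated proteins are of similar size, 405, 411, 404, 411 and 403 residues for lipl-1 to lipl-5. The nearest neighbours among them, lipl-5 and lipl-3, lie 133.9 kb apart, and the other gaps between members in order along the chromosome are 6026.0, 3239.4 and 3126.7 kb. The 3′ end of lipl-3 overlaps srw-107 on the same strand over 23 bases, and lipl-4 overlaps the RNA gene K04A8.15 over 120 bases and a tRNA gene over 82 bases on the opposite strand. As the strand setting of the counting is not given in the sources used here, reads from these overlaps are of uncertain origin.

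The family was dominated by lipl-5. Per kilobase of exon, lipl-5 averaged 128 ± 11.5 CPM per kb in N2, lipl-4 0.754 ± 0.0545, lipl-2 0.308 ± 0.119, lipl-3 0.280 ± 0.0703 and lipl-1 0.127 ± 0.0955 (SD, n = 5 each). On this scale the lipl-5 level was 170 times that of lipl-4 and 1011 times that of lipl-1. In CPM without length, lipl-5 ranked 1230 of the 14634 tested genes in N2, lipl-4 10193, lipl-3 12262, lipl-2 12295 and lipl-1 13853, and lipl-5 supplied 97.2% to 99.0% of the summed CPM of the 5 genes in every library. Depth therefore differed widely among members. The lipl-5 values rested on 3245 to 16698 counts per library, whereas those of lipl-1 rested on 0 to 96, of lipl-2 on 4 to 150, of lipl-3 on 0 to 129 and of lipl-4 on 35 to 117. No count of lipl-1 was found in N2 replicate 1, which allows up to 0.0712 CPM, nor in flp-17(lof) replicate 1, which allows up to 0.161 CPM, and no count of lipl-3 was found in flp-17(lof) replicate 1 (up to 0.161 CPM, 3 counts of the library, counting error only). The weakest member, lipl-1, reached the filter's minimum of 0.187 CPM in 15 of 25 libraries, 10 of them outside flp-17oe egl-6(lof), where 5 libraries were required.

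**Figure D1:**
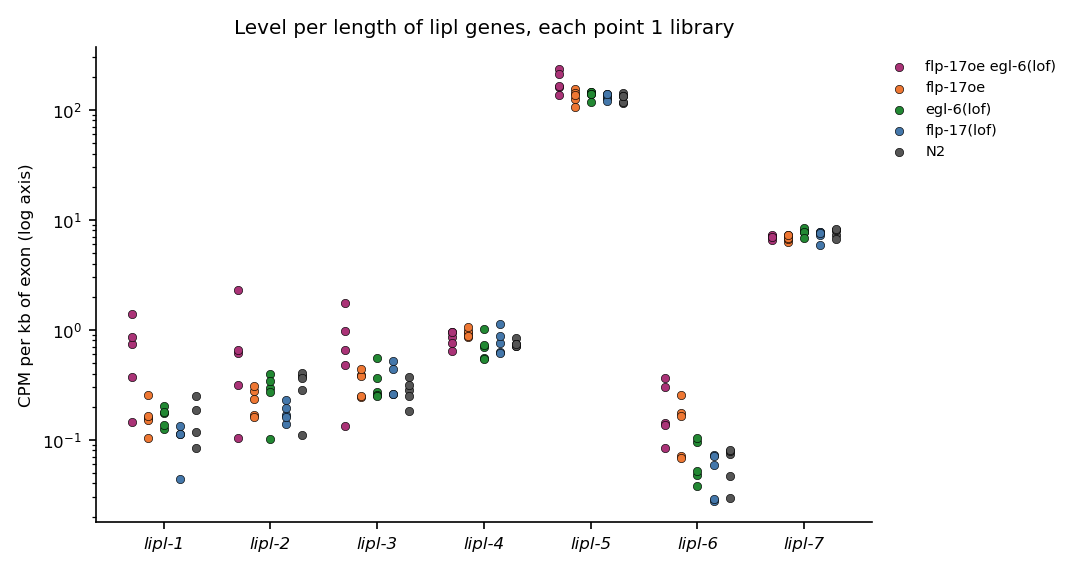
Level per length of the lipl genes, in CPM per kb of exon on a log axis, with each point 1 library coloured by genotype; libraries without a count are not drawn. The lipl-5 points lie above those of all other genes in every genotype, and lipl-7 lies between lipl-5 and lipl-4.

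The comparison of flp-17oe egl-6(lof) with flp-17oe asks what loss of the receptor changes in animals that carry the array. Here lipl-1 and lipl-5 rose, at a fitted 3.78-fold and 1.36-fold, and they were 2 of 5 members called higher, where 1.18% of all tested genes were higher and 1.39% changed in either direction. The fitted differences of lipl-2 (2.92-fold) and lipl-3 (2.08-fold) did not pass the adjustment, and lipl-4 stood at 0.883-fold. The median log2 difference of the 5 members was 1.06, or 0.59 without flp-17oe egl-6(lof) replicate 2, beside 0.00 over all tested genes. In whole animals, fewer cells of a type and less RNA per cell cannot be told apart.

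The lipl-1 gene had 0.193, 1.87, 0.499, 0.983 and 1.14 CPM in flp-17oe egl-6(lof) replicates 1 to 5, against 0.138, 0.213, 0.204, 0.219 and 0.341 CPM in flp-17oe. Replicate 1 of flp-17oe egl-6(lof), the batch 1 library, lay among the flp-17oe values, and the other four lay above all of them. The log2 difference was 1.92 (SE 0.40, adjusted p = 0.0146, edgeR quasi-likelihood test with Benjamini-Hochberg adjustment over all tested genes). The means were 0.937 ± 0.643 CPM in flp-17oe egl-6(lof) and 0.223 ± 0.0734 CPM in flp-17oe (SD, n = 5 each). The call was lost without flp-17oe egl-6(lof) replicate 2 (log2 1.58, adjusted p = 0.0649), the library with the highest level, and without flp-17oe replicate 3 (log2 1.82, adjusted p = 0.0632), and it held without each of the other 23 libraries taken singly. With a replicate number left out of every genotype, the call of lipl-1 was lost without number 2 (log2 1.51, adjusted p = 0.123), 3 (1.99, 0.124), 4 (1.84, 0.140) or 5 (1.98, 0.150), and it was also lost without the batch term (2.05, 0.0555).

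For lipl-5, a gene known to respond to fasting, flp-17oe egl-6(lof) had 172, 299, 264, 204 and 207 CPM in replicates 1 to 5, against 134, 194, 159, 179 and 174 CPM in flp-17oe. Again the batch 1 library of flp-17oe egl-6(lof) was the lowest of its genotype and lay within the range of flp-17oe, and the other four exceeded that range. The log2 difference was 0.45 (SE 0.10, adjusted p = 0.0179), with means of 229 ± 51.2 CPM in flp-17oe egl-6(lof) and 168 ± 22.7 CPM in flp-17oe (SD, n = 5 each). Without flp-17oe egl-6(lof) replicate 2 or 3 the adjusted p of lipl-5 was 0.0776 (log2 0.34) and 0.0914 (log2 0.38), and without flp-17oe replicate 1 or 3 it was 0.0708 (log2 0.40) and 0.0681 (log2 0.42). It was called without each of the other 21 libraries taken singly. With a replicate number left out of every genotype, the call of lipl-5 was lost without number 3 (log2 0.38, adjusted p = 0.313), 4 (0.49, 0.0704) or 5 (0.48, 0.127), and it was also lost without the batch term (0.45, 0.0590) and with the compared genotypes alone (0.44, 0.0946).

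Among the members that were not called, lipl-2 had 0.134, 2.92, 0.787, 0.404 and 0.829 CPM in flp-17oe egl-6(lof), against 0.354, 0.213, 0.204, 0.394 and 0.297 CPM in flp-17oe. Replicate 2 was far above the rest of its genotype and replicate 1 below all flp-17oe libraries. The log2 difference of lipl-2 was 1.54 (SE 0.47, adjusted p = 0.127). It was 0.70 without flp-17oe egl-6(lof) replicate 2, and it passed without flp-17oe egl-6(lof) replicate 1 (log2 1.88, adjusted p = 0.0271) or without flp-17oe replicate 1 (log2 2.00, adjusted p = 0.0361). The lipl-3 gene had 0.193, 2.51, 1.39, 0.685 and 0.939 CPM in flp-17oe egl-6(lof), against 0.354, 0.553, 0.363, 0.547 and 0.638 CPM in flp-17oe. It had the same shape, with replicate 1 the lowest of all 10 libraries and replicate 2 the highest, and a log2 difference of 1.06 (SE 0.40, adjusted p = 0.284), or 0.59 without replicate 2 of flp-17oe egl-6(lof). The lipl-4 gene, with 1.56, 1.42, 1.26, 1.58 and 1.05 CPM in flp-17oe egl-6(lof) and 1.55, 1.40, 1.61, 1.44 and 1.73 CPM in flp-17oe, had a log2 difference of -0.18 (95% interval -0.47 to 0.11) with overlapping groups.

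The ratios of lipl-1, lipl-2 and lipl-3 differed between the batches, though no test of that was run. In batch 2 the ratio of flp-17oe egl-6(lof) to flp-17oe was 4.60 for lipl-1, 4.46 for lipl-2, 2.63 for lipl-3, 0.858 for lipl-4 and 1.38 for lipl-5. The groups of 4 libraries did not overlap for lipl-1, lipl-2, lipl-3 and lipl-5, as for 5.51% of all tested genes. The nearest values of flp-17oe egl-6(lof) and flp-17oe were close for lipl-2 (0.404 and 0.394 CPM) and lipl-3 (0.685 and 0.638 CPM). The batch 2 mean of lipl-2 in flp-17oe egl-6(lof), 1.23 ± 1.14 CPM (SD, n = 4), included 2.92 CPM in replicate 2. Between the single libraries of batch 1 the ratio was 1.40 for lipl-1, 0.378 for lipl-2, 0.546 for lipl-3, 1.00 for lipl-4 and 1.28 for lipl-5, with no replicate to set a spread. These ratios rested on 13 and 9 counts for lipl-1, 9 and 23 for lipl-2, and 13 and 23 for lipl-3. Fitted on batch 2 alone, 4 members were called, among 2.07% of all tested genes: lipl-1 at log2 2.17 (adjusted p = 0.00201), lipl-2 at 2.14 (0.0122), lipl-3 at 1.37 (0.0431) and lipl-5 at 0.46 (0.0138).

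**Figure D2:**
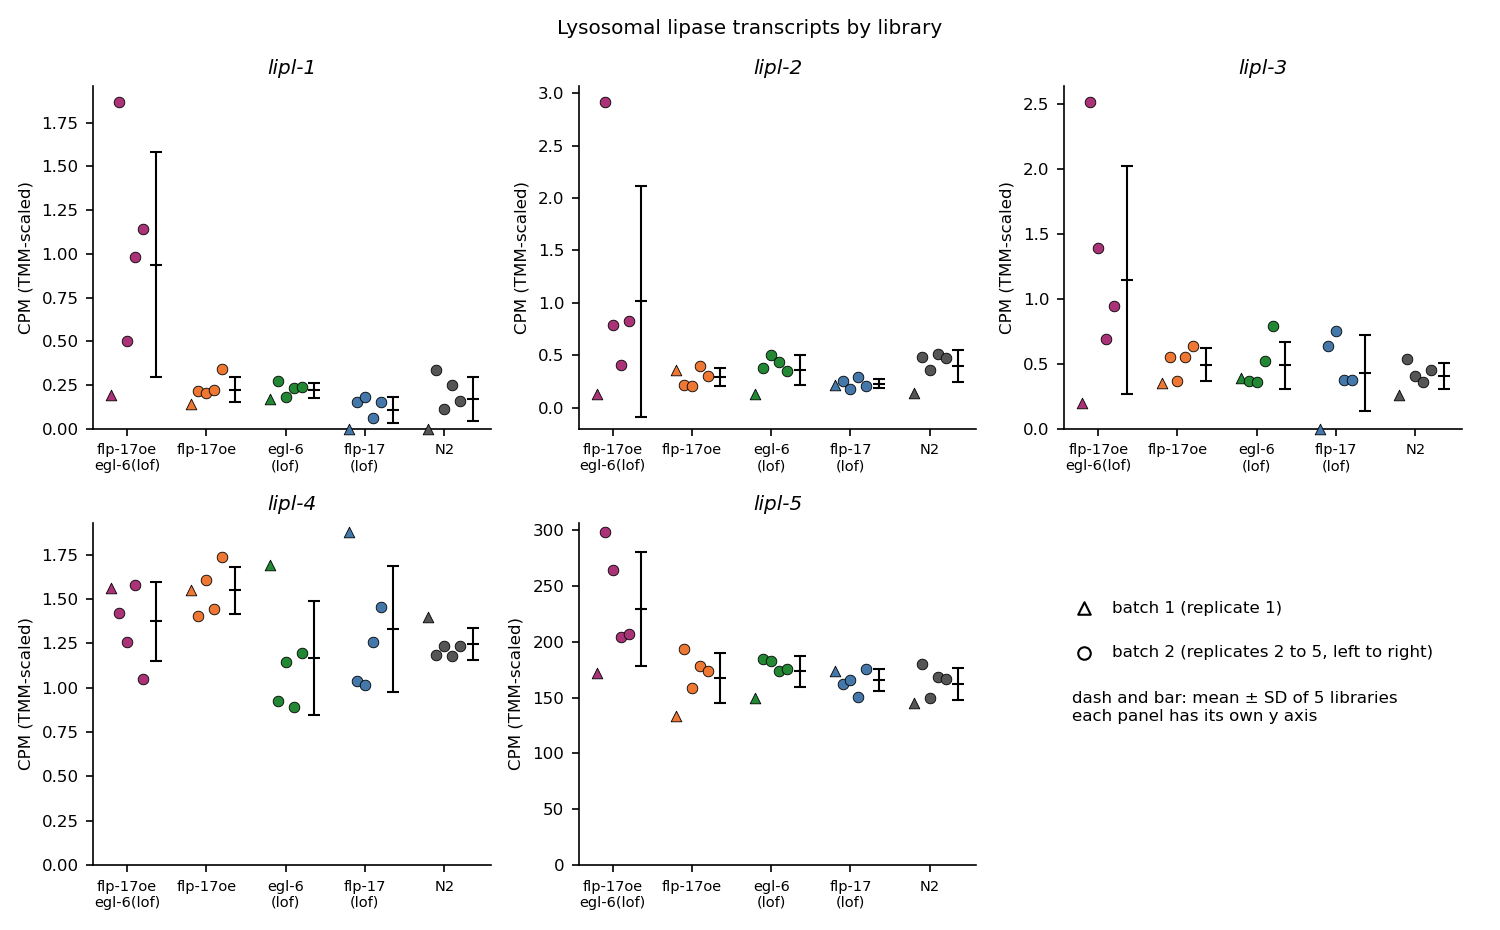
CPM of each lipase gene in every library by genotype, with triangles for batch 1, circles for batch 2 and a dash and bar for the mean ± SD of 5 libraries; each panel has its own axis. In flp-17oe egl-6(lof) the circles of lipl-1, lipl-2, lipl-3 and lipl-5 lie above all flp-17oe circles while the triangle does not. For lipl-2 the nearest circles are close, at 0.404 and 0.394 CPM, and lipl-2 is spread most, up to 2.92 CPM.

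Set against egl-6(lof), flp-17oe egl-6(lof) shows what the array and its sorting change in animals without the receptor. Of the 5 members, lipl-1, lipl-2 and lipl-5 were called higher and none lower, in a comparison where 14.4% of all tested genes changed and 6.02% were higher. Both comparisons of flp-17oe egl-6(lof) use the same 5 libraries of that strain, so they are not independent of each other. The median log2 difference of the members was 1.09, or 0.55 without flp-17oe egl-6(lof) replicate 2, beside 0.02 over all tested genes.

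The lipl-1 values in egl-6(lof) were 0.167, 0.273, 0.181, 0.235 and 0.239 CPM, and only the batch 1 library of flp-17oe egl-6(lof), at 0.193 CPM, fell among them. The log2 difference was 1.95 (SE 0.40, adjusted p = 0.00153). The lipl-5 values in egl-6(lof) were 150, 185, 183, 174 and 176 CPM, with a log2 difference of 0.39 (SE 0.10, adjusted p = 0.00621), and once more only the batch 1 library of flp-17oe egl-6(lof) lay within that range. Both calls held without each of the 25 libraries taken singly, and without replicate 3 of every genotype lipl-5 was lost (log2 0.36, adjusted p = 0.0543).

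The egl-6(lof) libraries had 0.130, 0.377, 0.502, 0.436 and 0.349 CPM of lipl-2, and the flp-17oe egl-6(lof) values overlapped them at replicates 1 and 4. The log2 difference of 1.42 (SE 0.45, adjusted p = 0.0348) rested on 1 library: without flp-17oe egl-6(lof) replicate 2 it was 0.55 (adjusted p = 0.375). The call was also lost without egl-6(lof) replicate 1, 2, 4 or 5, at adjusted p of 0.0585, 0.0725, 0.0616 and 0.0705, and without replicate number 2, 3, 4 or 5 of every genotype, at 0.475, 0.0764, 0.0555 and 0.141. For lipl-3, with 0.390, 0.364, 0.361, 0.520 and 0.790 CPM in egl-6(lof), the log2 difference was 1.09 (SE 0.40, adjusted p = 0.0718). It was 0.62 (adjusted p = 0.351) without flp-17oe egl-6(lof) replicate 2. The gene passed without flp-17oe egl-6(lof) replicate 1 (0.0158) or replicate 4 (0.0451), egl-6(lof) replicate 1 (0.0310), or flp-17(lof) replicate 1 (0.0353), which belongs to another genotype. The lipl-4 gene had 1.69, 0.923, 1.14, 0.889 and 1.19 CPM in egl-6(lof) and differed by log2 0.26 (95% interval -0.04 to 0.55, adjusted p = 0.291).

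Within batch 2 the ratio of flp-17oe egl-6(lof) to egl-6(lof) was 4.84 for lipl-1, 2.97 for lipl-2, 2.71 for lipl-3, 1.28 for lipl-4 and 1.36 for lipl-5, and the groups did not overlap for lipl-1 and lipl-5, as for 17.6% of all tested genes. Between the batch 1 libraries it was 1.16 for lipl-1, 1.03 for lipl-2, 0.495 for lipl-3, 0.923 for lipl-4 and 1.14 for lipl-5. On batch 2 alone lipl-1, lipl-2, lipl-3 and lipl-5 were called, where 16.2% of all tested genes were.

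The interaction asks whether the array changes a gene differently with and without the receptor. No member passed: edgeR called 0 of 5 and DESeq2 called 0, in a comparison where edgeR called 0.0888% of all tested genes. An unadjusted p under 0.05 was found for 3 members, beside 1074 of all 14634 tested genes. The interaction estimates were log2 1.48 for lipl-1 (SE 0.61, adjusted p = 0.572), 1.69 for lipl-2 (SE 0.67, adjusted p = 0.549) and 0.35 for lipl-5 (SE 0.14, adjusted p = 0.542), with unadjusted p of 0.0232, 0.0188 and 0.0179. For lipl-3 the estimate was 0.76 (95% interval -0.45 to 1.97) and for lipl-4 -0.06 (95% interval -0.48 to 0.35). On batch 2 alone edgeR also called 0 members, where 1.16% of all tested genes were called, with lipl-1 at log2 2.06 (adjusted p = 0.0746) and lipl-2 at 2.29 (adjusted p = 0.0946).

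**Figure D3:**
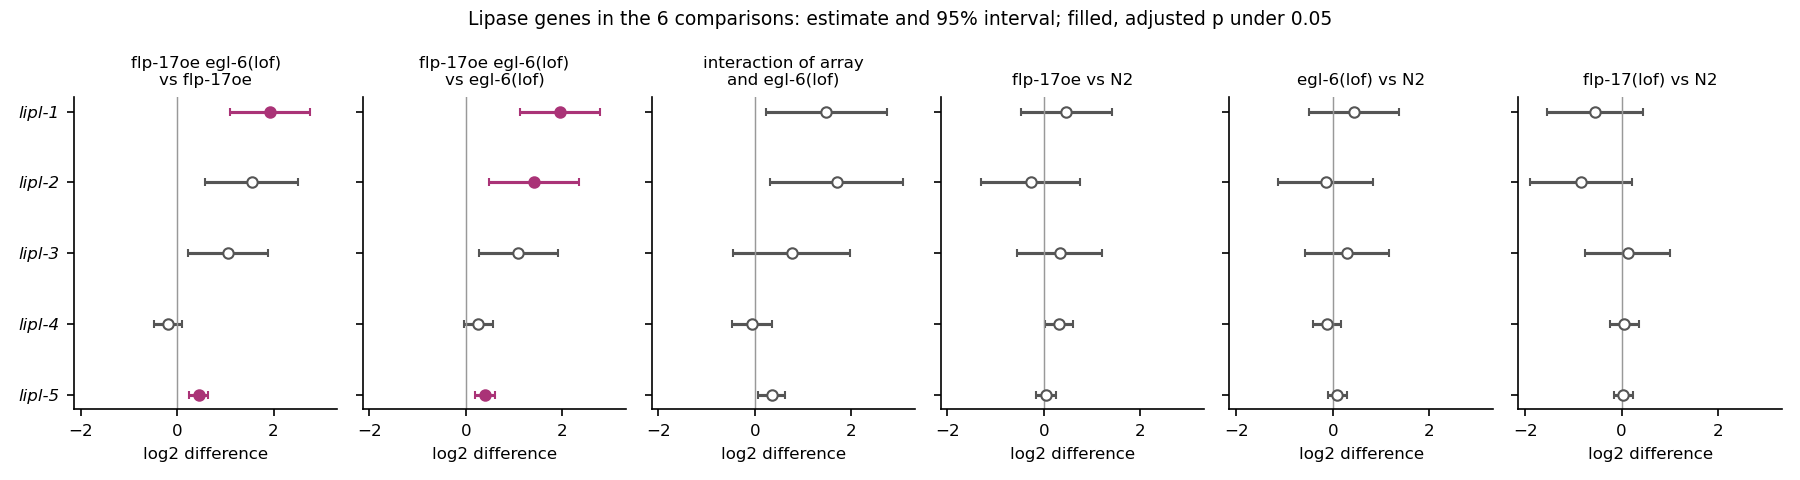
Fitted log2 difference of each lipase gene in the 6 comparisons, with its 95% interval; filled points passed an adjusted p under 0.05 in edgeR and open points did not. Filled points occur in the comparisons of flp-17oe egl-6(lof) with flp-17oe (lipl-1 and lipl-5) and with egl-6(lof) (lipl-1, lipl-2 and lipl-5), and all intervals of lipl-1 and lipl-2 are wider than those of lipl-5.

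Array animals with the receptor were compared with N2. For the lipase genes edgeR called 0 of 5 in flp-17oe, where 6.96% of all tested genes changed, and DESeq2 called 0. An unadjusted p under 0.05 was found for 1 member, beside 3130 of all 14634 tested genes. That member was lipl-4, the lipase gene linked to lysosomal lipid signalling. It had 1.55, 1.40, 1.61, 1.44 and 1.73 CPM in flp-17oe, against 1.40, 1.18, 1.23, 1.18 and 1.23 CPM in N2. Every flp-17oe library lay above every N2 library, though the lowest of flp-17oe and the highest of N2, its batch 1 library, both round to 1.40 CPM. Groups of all 5 libraries did not overlap for 8.66% of all tested genes. The log2 difference of lipl-4 was 0.32 (SE 0.14, unadjusted p = 0.0343, adjusted p = 0.193).

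In the same comparison lipl-5 averaged 168 ± 22.7 CPM in flp-17oe and 162 ± 14.5 CPM in N2 (SD, n = 5 each), a log2 difference of 0.04 with a 95% interval of -0.16 to 0.25. The lipl-5 values in N2 were 145, 180, 150, 169 and 167 CPM, and the groups overlapped. The intervals of the weak members were wide: -0.47 to 1.41 around 0.47 for lipl-1, -1.29 to 0.74 around -0.28 for lipl-2, and -0.55 to 1.20 around 0.33 for lipl-3. Differences within these intervals could not be told from 0 with these libraries.

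The single mutants were compared with N2 for genes that depend on the receptor or the peptide at its normal level. In egl-6(lof), where 0.485% of all tested genes changed, edgeR called 0 of 5 lipase genes and DESeq2 called 0. An unadjusted p under 0.05 was found for 0 members, beside 1121 of all 14634 tested genes. The log2 differences were 0.43 for lipl-1, -0.15 for lipl-2, 0.30 for lipl-3, -0.12 for lipl-4 and 0.10 for lipl-5 (95% interval -0.10 to 0.30). The lipl-5 mean was 174 ± 13.9 CPM in egl-6(lof) and 162 ± 14.5 CPM in N2 (SD, n = 5 each). In flp-17(lof), where 0.0752% of all tested genes changed, edgeR again called 0 of 5, DESeq2 called 0 and 0 had an unadjusted p under 0.05, beside 390 of all 14634 tested genes. Here lipl-5 averaged 166 ± 10.1 CPM and differed from N2 by log2 0.04 (95% interval -0.16 to 0.24).

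The member with the lowest estimate in flp-17(lof) was lipl-2. It had 0.215, 0.250, 0.179, 0.295 and 0.206 CPM in flp-17(lof), against 0.142, 0.486, 0.359, 0.513 and 0.469 CPM in N2, a log2 difference of -0.84 (SE 0.51, adjusted p = 1.00). In batch 2 its groups did not overlap, with a ratio of 0.509, as was so for 2.65% of all tested genes, while the batch 1 library of flp-17(lof), which rests on 4 counts, lay above that of N2. The lipl-1 gene had 0, 0.150, 0.179, 0.0591 and 0.149 CPM in flp-17(lof) and 0, 0.334, 0.112, 0.247 and 0.156 CPM in N2, with a log2 difference of -0.55 (SE 0.48) and overlapping groups. The lipl-3 gene had 0, 0.638, 0.747, 0.374 and 0.374 CPM in flp-17(lof) and 0.261, 0.531, 0.404, 0.361 and 0.452 CPM in N2 (log2 0.13, SE 0.42). For lipl-4 the flp-17(lof) values were 1.88, 1.04, 1.02, 1.26 and 1.46 CPM (log2 0.05, SE 0.14), the highest of them in the library that stands apart.

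Ordered by mean level, flp-17oe egl-6(lof) came first for lipl-1, lipl-2, lipl-3 and lipl-5. For lipl-1 the order continued with flp-17oe, egl-6(lof), N2 and flp-17(lof), and for lipl-5 with egl-6(lof), flp-17oe, flp-17(lof) and N2. For lipl-2 it continued with N2, egl-6(lof), flp-17oe and flp-17(lof), and for lipl-3 with flp-17oe, egl-6(lof), flp-17(lof) and N2. For lipl-4 flp-17oe led, followed by flp-17oe egl-6(lof), flp-17(lof), N2 and egl-6(lof). The ranges of all neighbours in these orders overlapped. The gap between the first genotype and the next exceeded the larger of their SDs for lipl-1 (0.714 CPM against 0.643) and lipl-5 (55.6 CPM against 51.2), and no other gap did. Spread within flp-17oe egl-6(lof) was large for the weak members, with a coefficient of variation of 68.7% for lipl-1, 109% for lipl-2 and 76.8% for lipl-3, beside 16.17% for lipl-4 and 22.3% for lipl-5.

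Across the 25 libraries, which share genotype, batch and sorting, the log2 CPM of lipl-1, lipl-2, lipl-3 and lipl-5 correlated with each other, with Pearson r from 0.557 (lipl-3 and lipl-5) to 0.784 (lipl-1 and lipl-3). After genotype and batch means were removed the values were lower, 0.551 for lipl-2 and lipl-5, 0.470 for lipl-1 and lipl-3 and 0.0506 for lipl-3 and lipl-5. The lipl-4 gene correlated with the other members at -0.364 to -0.0845.

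The genes most like each member, over the same 25 libraries and by Pearson r of log2 CPM, differed from member to member. For lipl-5 they were thn-2, of the thaumatin family (0.914), dod-23 (0.901) and Y41G9A.10 (0.900), and these values stayed at 0.872, 0.824 and 0.879 once genotype and batch means were removed. For lipl-1 they were catp-3, a cation-transporting ATPase gene (0.899), math-38 (0.882) and tth-1, a thymosin beta gene (0.861), with 0.459, 0.670 and 0.371 after that removal. For lipl-2 they were the asparagine synthetase gene asns-2 (0.841), scl-2 (0.836) and the D-amino acid oxidase gene daao-1 (0.820). For lipl-3 they were F59F5.7 (0.873), the autophagy gene atg-16.1 (0.851) and R07E3.7 (0.846). The Spearman correlation of R07E3.7 with lipl-3 was 0.557, and F59F5.7 and R07E3.7 were weak, at means of 0.532 and 0.842 CPM over the 25 libraries. For lipl-4 they were the lysozyme gene lys-4 (0.739), the bZIP gene zip-5 (0.736) and F27E5.7 (0.727). After the same removal the values were 0.691, 0.763 and 0.651 for lipl-2 and 0.788, 0.627 and 0.785 for lipl-3. For lipl-4 they were then 0.412, 0.585 and 0.560. Of these genes, picked on the same libraries and so no independent evidence, edgeR called higher in flp-17oe egl-6(lof) relative to flp-17oe 3 of 3 for lipl-1, 1 of 3 for lipl-2, 0 of 3 for lipl-3, 0 of 3 for lipl-4 and 2 of 3 for lipl-5. The 3 genes like lipl-5 had these means: thn-2 averaged 30.7 ± 15.5 CPM in flp-17oe egl-6(lof) and 16.16 ± 3.79 CPM in flp-17oe, dod-23 averaged 87.6 ± 21.2 CPM in flp-17oe egl-6(lof) and 59.7 ± 10.3 CPM in flp-17oe, and Y41G9A.10, which was not called, averaged 5.47 ± 3.09 CPM in flp-17oe egl-6(lof) and 3.195 ± 1.02 CPM in flp-17oe (SD, n = 5 each).

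Of the 3 other lipl genes, lipl-6 was weak, at 0.395 ± 0.231 CPM in flp-17oe egl-6(lof), 0.283 ± 0.151 in flp-17oe, 0.130 ± 0.0575 in egl-6(lof), 0.0999 ± 0.0425 in flp-17(lof) and 0.119 ± 0.0440 in N2 (SD, n = 5 each). It rose in flp-17oe egl-6(lof) against egl-6(lof) (log2 1.54, SE 0.39, adjusted p = 0.00779) and did not pass in flp-17oe against N2 (log2 1.20, SE 0.41, adjusted p = 0.0832). The lipl-7 gene averaged 9.08 ± 0.402 CPM in flp-17oe egl-6(lof) and 9.93 ± 0.834 CPM in N2 and passed no test, with no comparison called by DESeq2 either. The lipl-8 gene had 0 to 2 counts per library and was not tested.

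Known regulators of the lipase genes, and genes of the signal from lysosome to nucleus such as lbp-8, were measured with them. Of 12 such genes, which included hlh-30, mxl-3, nhr-49, nhr-80, lbp-8 and daf-16, edgeR and DESeq2 called 0 in each of the 6 comparisons. At an unadjusted p under 0.05, 1 was higher in egl-6(lof), 2 higher and 1 lower in flp-17oe, 1 higher in flp-17oe egl-6(lof) relative to flp-17oe, 1 higher and 1 lower against egl-6(lof), and 0 in flp-17(lof) and in the interaction. In flp-17oe against N2, hlh-30, of the TFEB-type activator, averaged 55.4 CPM in flp-17oe and 45.8 CPM in N2 (log2 0.28, SE 0.10, adjusted p = 0.0874). In flp-17oe egl-6(lof) against egl-6(lof), mxl-3, of the repressor, averaged 19.9 CPM in flp-17oe egl-6(lof) and 25.3 CPM in egl-6(lof) (log2 -0.35, SE 0.14, adjusted p = 0.0998), and against flp-17oe (22.8 CPM) its log2 difference was -0.20. Called with batch 2 alone, 1 was higher in flp-17oe egl-6(lof) against egl-6(lof). Without flp-17(lof) replicate 1, 1 was higher in flp-17oe against N2. Beside this and the later lists, edgeR called 1.39% of all tested genes in flp-17oe egl-6(lof) relative to flp-17oe and 14.4% against egl-6(lof). It called 6.96% in flp-17oe against N2. In batch 2 alone the shares were 2.07% against flp-17oe and 16.2% against egl-6(lof). Of all 14634 tested genes, 1510 had an unadjusted p under 0.05 against flp-17oe, 3604 against egl-6(lof) and 3130 in flp-17oe against N2. HLH-30 is known to be controlled through its entry into the nucleus, which RNA levels do not measure.

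Lipid breakdown in the cytosol was represented by 8 tested genes of 9. The adipose triglyceride lipase gene atgl-1 averaged 94.3 ± 5.57 CPM in flp-17oe egl-6(lof), 94.4 ± 4.05 in flp-17oe, 88.0 ± 3.32 in egl-6(lof), 90.2 ± 9.39 in flp-17(lof) and 92.4 ± 7.64 in N2 (SD, n = 5 each) and passed no test. In flp-17oe egl-6(lof) against egl-6(lof) 1 of the 8 was called higher, the fasting-induced lipase gene fil-1 (0.317 ± 0.109 CPM in flp-17oe egl-6(lof) and 0.145 ± 0.0538 CPM in egl-6(lof), log2 1.13, SE 0.35, adjusted p = 0.0271), and 0 in the other 5 comparisons, where DESeq2 called 1 in flp-17oe egl-6(lof) relative to flp-17oe and 0 elsewhere and 1 gene passed an unadjusted p under 0.05 in each of the comparisons of egl-6(lof) with N2, of flp-17oe with N2 and of flp-17oe egl-6(lof) with flp-17oe. In the last of these edgeR called 1 higher without flp-17(lof) replicate 1.

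Of 36 other lysosome genes, all tested, 2 rose and 0 fell in flp-17oe egl-6(lof) relative to flp-17oe, with a median log2 difference of -0.07. They were asah-1, of an acid ceramidase (12.9 ± 4.22 CPM in flp-17oe egl-6(lof) and 8.30 ± 1.37 CPM in flp-17oe, log2 0.61, SE 0.13, adjusted p = 0.0149), and nuc-1, of a lysosomal DNase (50.1 ± 5.23 CPM and 39.6 ± 2.25 CPM, log2 0.33, SE 0.07). Against egl-6(lof) 4 rose and 0 fell, led by the palmitoyl-protein thioesterase gene ppt-1 (3.70 ± 0.403 CPM in flp-17oe egl-6(lof) and 1.95 ± 0.312 CPM in egl-6(lof), log2 0.93, SE 0.15), hex-1 (log2 0.39) and the aspartyl protease gene asp-4 (log2 0.51). In flp-17oe against N2 3 rose and 1 fell, and there ppt-1 stood at log2 1.04 (SE 0.15), asp-3 at 0.44 and nuc-1 at -0.42. At an unadjusted p under 0.05, 6 lysosome genes were higher and 8 lower against flp-17oe, 5 higher and 9 lower against egl-6(lof), and 5 higher and 6 lower in flp-17oe against N2. In batch 2 alone edgeR called 3 higher and 2 lower against flp-17oe, 4 higher and 0 lower against egl-6(lof) and 4 higher and 1 lower in flp-17oe against N2. DESeq2 called 2 higher and 2 lower against flp-17oe, 4 higher and 3 lower against egl-6(lof) and 3 higher and 3 lower in flp-17oe against N2. Without flp-17(lof) replicate 1 edgeR called 3 higher and 1 lower against flp-17oe, 4 higher and 2 lower against egl-6(lof) and 4 higher and 3 lower in flp-17oe against N2. In both single mutants and the interaction edgeR and DESeq2 called 0 lysosome genes, and the genes with an unadjusted p under 0.05 numbered 0 for flp-17(lof), 1 for egl-6(lof) and 2 for the interaction.

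Of 15 autophagy genes, the cargo adaptor gene epg-2 rose in flp-17oe egl-6(lof) relative to flp-17oe (52.4 ± 13.9 CPM and 26.1 ± 8.58 CPM, log2 1.01, SE 0.22, adjusted p = 0.0167). The adaptor gene sqst-1 rose in flp-17oe egl-6(lof) against egl-6(lof) (log2 0.46, SE 0.10) and in flp-17oe against N2 (log2 0.37, SE 0.10). Without flp-17(lof) replicate 1, 2 autophagy genes were called higher against egl-6(lof). Among 18 genes of the fasting response and of fatty acid oxidation and desaturation, 1 rose and 1 fell in flp-17oe against N2, 0 rose and 1 fell in flp-17oe egl-6(lof) relative to flp-17oe, and 5 rose and 3 fell against egl-6(lof). The acyl-CoA dehydrogenase gene acdh-2 fell to 19.9 ± 4.88 CPM in flp-17oe egl-6(lof), against 43.6 ± 2.79 CPM in egl-6(lof) (log2 -1.14, SE 0.13), and to 23.9 ± 2.04 CPM in flp-17oe, against 49.2 ± 4.62 CPM in N2 (log2 -1.04, SE 0.13). Without flp-17(lof) replicate 1 the genes called lower in flp-17oe numbered 3, and DESeq2 called 2 higher and 4 lower there. In the same 2 comparisons ech-9 rose by log2 1.97 (SE 0.37) and 2.67 (SE 0.39), and fmo-2 rose against egl-6(lof) by 1.31 (SE 0.33). The stearoyl-CoA desaturase gene fat-7 fell to 79.8 ± 24.0 CPM in flp-17oe egl-6(lof), against 133 ± 30.5 CPM in flp-17oe (log2 -0.74, SE 0.18, adjusted p = 0.0359). For the autophagy and fasting lists edgeR and DESeq2 called 0 genes in both single mutants and in the interaction, with 0 at an unadjusted p under 0.05.

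Markers of the tissues that can express the lipases were set beside them. All 8 intestine markers had counts in every genotype. Their summed level was 1343 to 1931 CPM for flp-17oe egl-6(lof), 1597 to 1971 CPM for flp-17oe, 1434 to 2112 CPM for egl-6(lof), 1607 to 2007 CPM for flp-17(lof) and 1615 to 1991 CPM for N2. The library with the highest levels of lipl-1, lipl-2, lipl-3 and lipl-5, flp-17oe egl-6(lof) replicate 2, had the lowest intestine sum. The batch 1 library had the highest intestine sum in all 5 genotypes. In N2 the marker asp-1 averaged 1250 CPM, beside a mean intestine sum of 1798 CPM, so the sum rests mostly on that gene. Over the 25 libraries the intestine sum correlated with lipl-1, lipl-2, lipl-3 and lipl-5 at Pearson r of -0.665, -0.752, -0.680 and -0.717, and with lipl-4 at 0.250. After genotype and batch means were removed, these values were 0.000729 for lipl-1, -0.520 for lipl-2, -0.232 for lipl-3, -0.286 for lipl-4 and -0.367 for lipl-5. In flp-17oe egl-6(lof) 1 intestine marker, pho-1, fell against flp-17oe (log2 -0.44, SE 0.08; 2 markers with DESeq2, in batch 2 alone or without flp-17(lof) replicate 1) and 2, act-5 and pept-1, fell against egl-6(lof) (log2 -0.41 and -0.53), while elt-2 rose in flp-17oe against N2 (log2 0.28, SE 0.08). In both single mutants and the interaction edgeR and DESeq2 called 0 intestine markers, with 2 lower in the interaction at an unadjusted p under 0.05. The part of intestinal tissue in the lipase differences was not tested.

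The molting markers also moved. Their summed level was 33.3 to 129 CPM for flp-17oe egl-6(lof), 34.4 to 68.1 CPM for flp-17oe, 31.96 to 40.9 CPM for egl-6(lof), 25.9 to 34.4 CPM for flp-17(lof) and 29.9 to 36.2 CPM for N2, and none of the 6 was at 0 in a genotype. Their correlation with lipl-1 was 0.682, with lipl-2 0.384, with lipl-3 0.523, with lipl-4 0.0576 and with lipl-5 0.470, over the 25 libraries, and after removal of genotype and batch means 0.196, -0.037, 0.116, -0.047 and -0.083 for lipl-1 to lipl-5. In flp-17oe against N2 4 of the 6 rose, where 0 of 5 lipase genes were called. In flp-17oe egl-6(lof) 5 rose against egl-6(lof) and 0 against flp-17oe, where DESeq2 called 0 and the unadjusted p of 1 was under 0.05. The marker that did not rise against egl-6(lof), nas-37, averaged 18.2 CPM in flp-17oe egl-6(lof) and 21.2 CPM in egl-6(lof). Against egl-6(lof) 1 marker was lower at an unadjusted p under 0.05. DESeq2 called 1 lower there, as did edgeR without flp-17(lof) replicate 1. In N2 nas-37 averaged 21.1 CPM, beside a mean molting sum of 33.2 CPM, so in N2 the sum rests largely on it. In flp-17oe egl-6(lof) the mean sum was 67.6 CPM, beside 18.2 CPM of nas-37. There mlt-11 averaged 17.9 ± 16.8 CPM and noah-1 14.8 ± 10.7 CPM (SD, n = 5 each), against 1.51 and 3.87 CPM in N2. The part of the molting markers in the lipase differences was not tested.

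**Figure D4:**
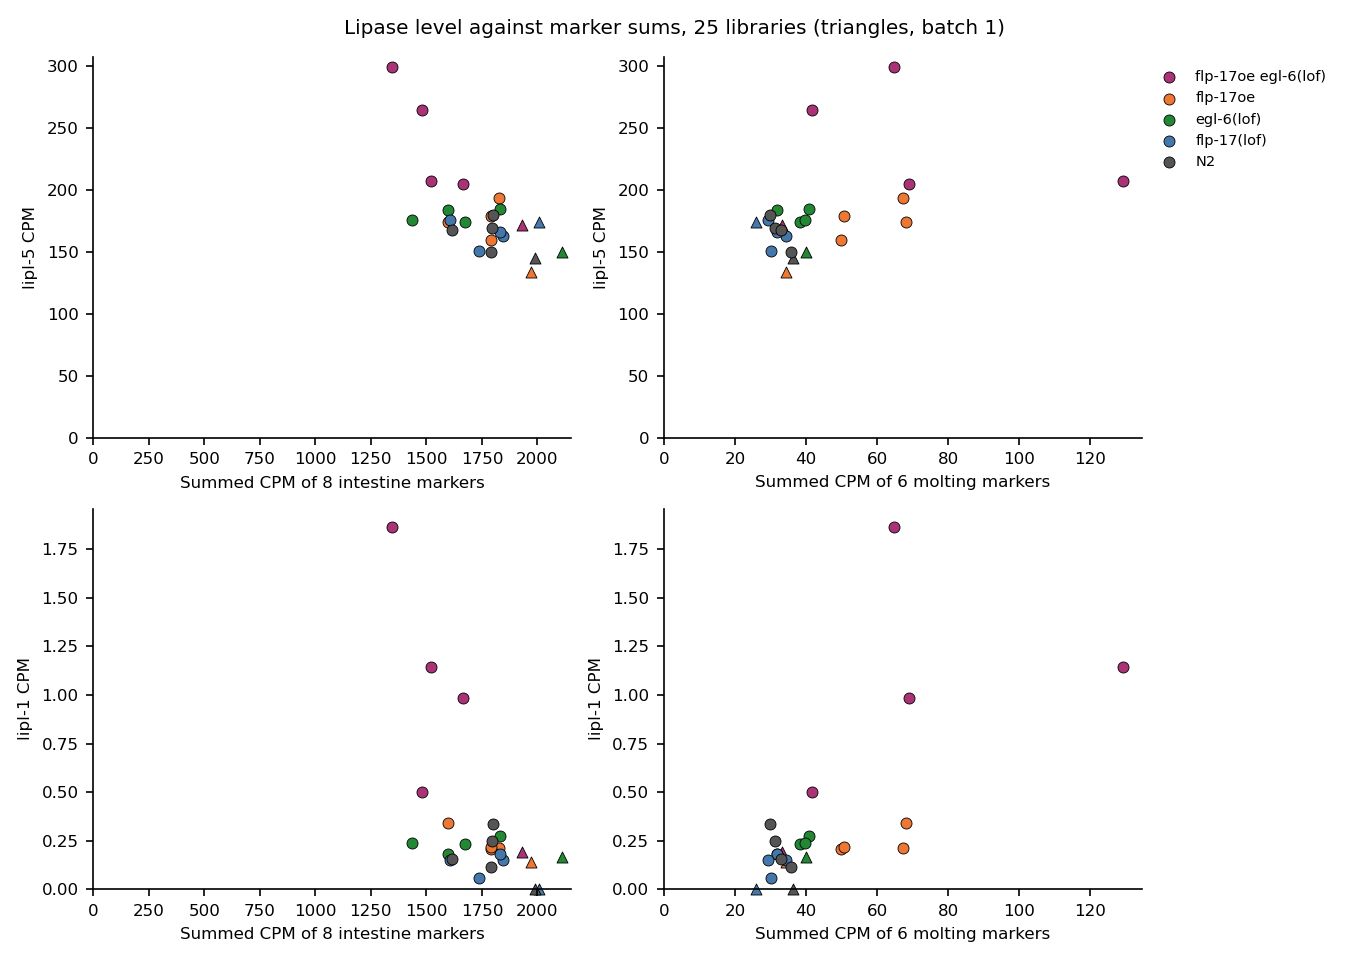
Levels of lipl-5 (top) and lipl-1 (bottom) in CPM against the summed CPM of 8 intestine markers (left) and 6 molting markers (right), with each point 1 library and triangles for batch 1. The highest lipl-5 and lipl-1 values, 299 and 1.87 CPM in flp-17oe egl-6(lof) replicate 2, stand at the lowest intestine sum of 1343 CPM and at a molting sum of 64.7 CPM, below the highest of 129 CPM.

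Markers of other cell types gave these counts. Of 4 body wall muscle markers 3 fell in flp-17oe egl-6(lof) against egl-6(lof), 2 fell in flp-17oe against N2 (1 in batch 2 alone, 3 without flp-17(lof) replicate 1) and 0 changed against flp-17oe, where 2 were lower at an unadjusted p under 0.05. Of 4 neuron markers 1 rose against egl-6(lof), 3 rose in flp-17oe against N2 and 0 changed against flp-17oe, none with an unadjusted p under 0.05, and DESeq2 called 0 of both lists there. All 4 sperm markers fell in flp-17oe egl-6(lof) against egl-6(lof), where their sum was 1.18 to 5.09 CPM in flp-17oe egl-6(lof) and 5.33 to 13.8 CPM in egl-6(lof). In N2 that sum was 15.1 CPM in replicate 1, above every egl-6(lof) library, and 1.16 to 2.43 CPM in replicates 2 to 5. In egl-6(lof) against N2 edgeR called 0 sperm markers, whereas all 4 were called by DESeq2 and had an unadjusted p under 0.05, each with a higher estimate in egl-6(lof). There edgeR called 4 higher in batch 2 alone and 2 without flp-17(lof) replicate 1. For coelomocyte (3), germ line (3) and pharynx (3) markers edgeR called 0 in every comparison. DESeq2 called 0 as well except for 1 pharynx marker in flp-17oe, and an unadjusted p under 0.05 was found in 0 tests of coelomocyte, 2 of germ line and 3 of pharynx markers. The sum of coelomocyte markers was 8.31 to 8.93 CPM in flp-17oe egl-6(lof) and 8.99 to 9.47 CPM in flp-17oe. The part of these cell types in the lipase differences was not tested. The flp-17 level itself differed between the array strains by log2 0.31 (SE 0.09, adjusted p = 0.0914), higher in flp-17oe egl-6(lof).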

How the data were processed

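The authors deposited 1 table of raw counts per gene and library, not normalized: its values are whole numbers whose library totals differ. Reads were aligned with STAR 2.7.11b to ce11, per the submitters' processing notes, while the program that counted reads, and whether it used strand, are not stated in the labels. Genes were kept by edgeR's filterByExpr (10 counts scaled to the median library, in at least 5 libraries, and 15 in total), scaled by TMM and fitted over all 25 libraries with terms for genotype and batch in edgeR 4.0.16 (robust quasi-likelihood), limma 3.58.1 and R 4.3.3. P-values were adjusted by Benjamini-Hochberg over the 14634 genes of a comparison, and a gene with an adjusted p under 0.05 counts as changed. The procedure was tested on data simulated without a batch effect, unlike these data, so that test does not bear on the batch term. Log2 CPM for correlations used a prior count of 2.

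Alternatives were DESeq2 1.42.0, DESeq2-type size factors, no filter, a stricter filter, no batch term, a replicate block, the compared genotypes alone, batch 2 alone and leaving out each replicate number or library. Libraries of flp-17oe egl-6(lof) and flp-17oe with the same number deviated together from the mean of their genotype. Correlations were 0.133 to 0.573 in all 5 pairs, which met the rule of a correlation over 0.1. Batch means were not removed first, so a shift shared by the batch 1 libraries can raise these values. The rule therefore cannot tell pairing by replicate number from batch. The other compared pairs of strains did not meet the rule, and pairs not compared were not checked. Libraries with unlike numbers were not correlated as a baseline. Sample names carry a group mark that follows the replicate number in every genotype, so missing the rule does not show that libraries are unpaired. Within a genotype no library duplicated another: the chi-square per gene of a pair was at least 5.70. Pairs across genotypes were not compared in this way.

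The members and gene lists were chosen with earlier results of these data known. Named beside the members were flp-17 and egl-6, up to 3 changed genes with the smallest p of each list and comparison, and the 3 genes most like each member. Genes such as atgl-1, hlh-30 and mxl-3 were named for their known role, after their values were seen. List counts on batch 2 alone and without flp-17(lof) replicate 1 were added after seeing the data.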

Additional observations from a re-analysis of the deposited data

Results flagged for a closer look

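In groups of 5 libraries, 5 of 60 sets of values held a library set off from the other four by Dixon's test, where chance flags about 1 in 20. The lipl-2 level was 2.92 CPM in flp-17oe egl-6(lof) replicate 2, with the next library of that strain at 0.829 CPM. The lipl-4 level was 1.40 CPM in N2 replicate 1, above 1.18 to 1.23 CPM in the other N2 libraries. The lipl-7 level was 7.63 CPM in flp-17(lof) replicate 1, the library that stands apart in depth. The summed molting markers were 31.96 CPM in egl-6(lof) replicate 3, below the other libraries of that strain. The summed coelomocyte markers were 10.3 CPM in egl-6(lof) replicate 1, the highest of that strain.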

How the results depend on the processing

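For egl-6(lof) against N2 the 71 genes became 362 with DESeq2, 35 without the batch term, 39 with the compared genotypes alone and 693 in batch 2 alone. For flp-17oe egl-6(lof) relative to flp-17oe the 204 became 350 with DESeq2 and 125 with the compared genotypes alone. For the interaction the 13 became 36 with DESeq2, 6 without the batch term and 168 in batch 2 alone. Of the 2 lipase genes called in flp-17oe egl-6(lof) relative to flp-17oe, 0 were called without the batch term (adjusted p = 0.0555 for lipl-1 and 0.0590 for lipl-5), 1 with the compared genotypes alone (lipl-5 at 0.0946), and 4 in batch 2 alone. Against egl-6(lof) lipl-2 was lost without the batch term (0.0582) and with the compared genotypes alone (0.124). In flp-17(lof) against N2 lipl-4 and lipl-5 turned to log2 -0.029 and -0.023 in batch 2 alone. The cause of these shifts was not tested. With the replicate block in place of batch, 2 lipase genes were called in flp-17oe egl-6(lof) relative to flp-17oe, the one comparison that met the pairing rule. The block gave 7 genes in the interaction and lipl-2 at an adjusted p of 0.0712 against egl-6(lof), which did not meet that rule. It ended no other lipase call.

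Leaving out 1 replicate number or library, the count of all genes ran from 17 to 693 genes for egl-6(lof), from 411 to 1416 genes for flp-17oe, 18 to 322 in flp-17oe egl-6(lof) relative to flp-17oe, 1321 to 2453 against egl-6(lof) and 2 to 168 in the interaction. The stricter filter removed lipl-2, which then had no value. The lipase genes called ran from 0 to 4 against flp-17oe and from 1 to 4 against egl-6(lof), where lipl-5 was lost without replicate 3 of every genotype (log2 0.36, adjusted p = 0.0543). Log2 differences that changed sign ran from -0.19 to 0.32 for lipl-3, -0.029 to 0.13 for lipl-4 and -0.045 to 0.090 for lipl-5 in flp-17(lof), from -0.0035 to 0.093 for lipl-5 in flp-17oe and from -0.23 to 0.095 for lipl-4 in the interaction. Depth sets a limit for lipl-1, lipl-2 and lipl-3, where 1 count is worth 0.00995 to 0.0537 CPM, but counting error and spread between libraries were not separated.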
